A study of Rattus norvegicus with 14 samples.

Results

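Control primary Schwann cells were compared with adult sciatic nerve at 4700 of the 4993 candidate transcription start sites (TSSs), in 5 of the 14 libraries of the series. The comparison took every TSS above 1 RPM (the reads of a TSS scaled to the depth of its library) in at least 2 of the 5 libraries, and 293 TSSs were left out by this minimum. Tn5Prime sequences the 5′ ends of captured transcripts, so that piles of read starts mark TSSs. The 2 nerve libraries came from independent nerves of wild type rats aged 6 to 9 months. The 3 control libraries came from wild type primary Schwann cells bought from a vendor and treated with vehicle. These cells had grown in medium with 10% FBS, 10 nM neuregulin and 2 µM forskolin on poly-L-lysine and laminin. Neuregulin and forskolin were then withdrawn, and medium with 5% FBS was renewed on each of 4 days before RNA was isolated. The control cells were sequenced on a NovaSeq and the nerves on a HiSeq instrument, so that culture, the mixture of cells and the sequencer cannot be told apart in any difference between the groups. In bulk RNA of this kind, fewer cells of a type and less RNA per cell cannot be told apart either.

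The study had selected the candidates as TSSs that are active in sciatic nerve and lie near both a SOX10 and an H3K4me3 ChIP-Seq peak of that tissue. A TSS silent in nerve was therefore never a candidate, and no TSS tested was at or under the floor of 3 reads in both nerves. At the edge of the minimum, a TSS of Rex1bd at 1.00 and 7.87 RPM in the 2 nerves was just inside, and a TSS of Rps27 at 4.18 and 0.990 RPM was just outside. The control libraries held 57119858, 65432361 and 51438602 reads and the nerve libraries 29895599 and 38377828. Candidate TSSs took 35.8% to 36.2% of the reads in control cells and 29.5% to 30.7% in nerve, and the 10 strongest of them took 17.5% to 17.9% of these reads in control cells and 45.0% to 45.3% in nerve.

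A myelinating Schwann cell wraps 1 segment of an axon and makes large amounts of a few membrane proteins, the compact myelin proteins PMP22 and MBP among them. SOX10 is needed at every stage of this lineage, and EGR2 (KROX20) drives the genes of myelination together with it. Schwann cells that lose contact with axons, after nerve injury or in culture, are known to shut down the myelin program and to switch on genes of immature and repair cells, such as Jun and the neurotrophin receptor gene Ngfr. Forskolin and cAMP analogs are used in culture to imitate a part of the axon's signal. S16 is an immortalized rat Schwann cell line.

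Windows of 300 bases run from 250 before to 50 after the annotated start. They are shown for the leading genes of each direction that have one in RefSeq (GRCr8). The differences between nerve and culture were read at TSSs of these genes. The build of the measured TSSs was rn5, and which measured TSS each window belongs to was not established. At Mal the measured TSS was on the plus strand of rn5, whereas the window is on the minus strand of GRCr8. Capitals mark the motifs found, of 5 that were searched on both strands (the TATA box TATAAA, the SOX motif ACAAAG, the AP-1 motif TGACTCA, the cAMP response element TGACGTCA and the CCAAT box CCAAT), none of which contains another. Pmp22 and Mal were lower in culture, and Plk2 and Cited2 were higher.
Pmp22, chr10:48294682-48294981, plus strand: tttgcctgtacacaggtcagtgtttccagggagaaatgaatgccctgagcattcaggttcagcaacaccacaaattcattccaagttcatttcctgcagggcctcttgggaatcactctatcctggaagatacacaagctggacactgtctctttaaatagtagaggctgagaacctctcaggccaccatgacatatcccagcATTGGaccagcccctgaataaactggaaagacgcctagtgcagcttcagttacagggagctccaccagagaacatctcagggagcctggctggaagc
Mal, chr3:135341374-135341673, minus strand: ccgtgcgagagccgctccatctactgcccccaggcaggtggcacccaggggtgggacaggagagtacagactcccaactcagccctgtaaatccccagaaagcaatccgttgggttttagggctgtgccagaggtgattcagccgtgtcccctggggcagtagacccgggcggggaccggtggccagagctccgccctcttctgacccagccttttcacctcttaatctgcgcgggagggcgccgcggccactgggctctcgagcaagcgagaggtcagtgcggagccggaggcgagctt
Plk2, chr2:43702286-43702585, plus strand: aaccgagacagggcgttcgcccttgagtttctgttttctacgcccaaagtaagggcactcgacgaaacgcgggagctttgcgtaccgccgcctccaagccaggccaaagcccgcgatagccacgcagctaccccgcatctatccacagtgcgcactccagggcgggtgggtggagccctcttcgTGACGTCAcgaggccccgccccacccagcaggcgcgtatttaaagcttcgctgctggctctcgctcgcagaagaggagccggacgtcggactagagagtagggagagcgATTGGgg
Cited2, chr1:14132053-14132352, plus strand: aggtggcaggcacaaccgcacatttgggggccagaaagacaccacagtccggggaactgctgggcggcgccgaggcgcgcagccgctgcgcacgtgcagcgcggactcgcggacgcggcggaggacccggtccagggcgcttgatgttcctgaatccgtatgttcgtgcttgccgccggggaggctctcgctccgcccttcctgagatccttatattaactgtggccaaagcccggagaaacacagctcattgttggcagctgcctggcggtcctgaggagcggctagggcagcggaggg

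The Pmp22 window held a CCAAT box on the minus strand, whose first base lay at -47 from the start. In the Plk2 window a cAMP response element began at -66 and a CCAAT box on the minus strand at 44. The windows of Mal and Cited2 held none of the 5 motifs. Of the 2943 genes tested, 2439 matched a window by symbol or synonym. A cAMP response element stood in 3.77% of them, in 4.18% of the 407 matched genes with a large rise and in 1.91% of all 27457 windows. The CCAAT box stood in 39.1%, 39.8% and 37.7% of the same 3 sets, the SOX motif in 12.1%, 12.3% and 18.3%, the AP-1 motif in 3.20%, 4.42% and 4.53%, and the TATA box in 6.11%, 7.37% and 14.3%. For genes with a large fall the search was void, since only 126 of 162 had a window.

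Control cells and nerve differed at a large part of the candidate promoters. With limma on log2(RPM + 1), 512 TSSs (10.9% of those tested) were higher in control cells by a log2 fold change of at least 2, which is 4-fold on that scale, and 529 (11.3%) were lower by as much. A change of this size at an adjusted p under 0.05 is called large below. Large falls numbered 240 without the first nerve and 197 without the second (514 and 402 with the same TSSs tested), and 153 with a pseudocount of 5. The values of the 2 groups did not overlap at any of these 1041 TSSs, and at 70.4% of all TSSs tested (42.0% with control cells higher and 28.4% with them lower). Counted at any size, 1603 TSSs (34.1%) were higher and 1022 (21.7%) were lower. When 1 TSS per gene was taken, the one with the highest level over both groups and called the main TSS here, 487 of 2943 genes (16.5%) showed a large rise and 162 (5.50%) a large fall. At any size 51.3% of main TSSs were higher and 9.89% were lower.

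The share of higher calls depended on the scaling of the libraries. The median log2 fold change of all TSSs was 0.28 in RPM, -0.34 with TMM scaling and -0.50 with median-ratio scaling, and that of main TSSs was 0.95, 0.28 and 0.11. Large changes then numbered 201 higher and 890 lower with TMM, and 158 higher and 1004 lower with the median ratio. At any size the counts were 932 and 1389 with TMM and 773 and 1549 with the median ratio. Both scalings divided nerve values by factors of 0.685 to 0.746 and control values by factors of 1.22 to 1.29. A fall could thus only grow in size under them and a rise only shrink. Under this shift all 529 large falls stayed large, which says little about them, and 158 of the 512 large rises were large under all 3.

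**Figure D1:**
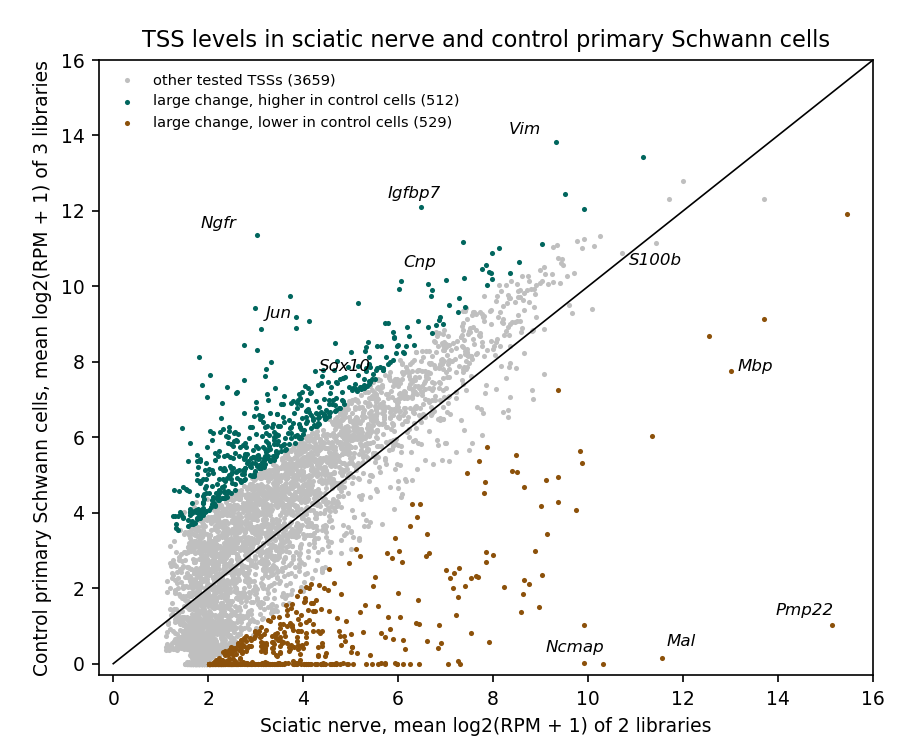
Mean level of each of the 4700 TSSs in sciatic nerve (x axis) and in control primary Schwann cells (y axis), both as log2(RPM + 1), with 1 point per TSS and the large changes coloured. The 529 large falls include TSSs with high nerve levels that lie on the floor of the y axis, and the 512 large rises lie above the diagonal over most of the range of nerve levels.

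The gene with the largest fall was Pmp22, which codes for a tetraspan protein of compact myelin and whose dosage is altered in inherited neuropathies. Its main TSS (chr10:49316968-49317054, plus strand) was at 34274 and 38188 RPM in the 2 nerves and at 0, 1.82 and 2.04 RPM in the 3 control libraries. Both nerves stood far above every control library, and the means differed 28159-fold (log2 fold change -14.11, SE 0.47, limma adjusted p = 5.85e-06). Mal, coding for a proteolipid of myelin membrane rafts, was at 3124 and 2907 RPM in nerve and at 0.0350, 0.214 and 0.117 RPM in control cells (log2 fold change -11.39, SE 0.21, adjusted p = 1.17e-06). Ncmap, whose product sits in non-compact myelin, was at 1399 and 1152 RPM in nerve and at 0 in all 3 control libraries, at least 21865-fold lower. Neither gene came near its nerve level in any control library.

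Mbp and Cd9 were lower as well, but kept a level that could be measured. Mbp, coding for the protein of the cytoplasmic face of compact myelin, was at 10142 and 6615 RPM in nerve and at 194, 212 and 239 RPM in control cells (log2 fold change -5.25, SE 0.19, adjusted p = 6.75e-06). The tetraspanin gene Cd9 was at 2837 and 2414 RPM in nerve and at 58.4, 67.9 and 67.0 RPM in control cells (log2 fold change -5.33, adjusted p = 1.73e-06). At both genes the control libraries lay close together, with means 39.0-fold and 40.8-fold below those of nerve.

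Of 27 myelin genes tested, 17 were lower (13 of them by a large change), 7 were higher (5 large) and 3 were not called. Among all main TSSs 9.89% were lower, 5.50% by a large change. The median log2 fold change of their main TSSs was -1.79 in RPM and -2.68 with the median ratio, against 0.95 and 0.11 for all main TSSs, and their summed level was 85172 and 85830 RPM in the nerves and 7607 to 7775 RPM in control cells. The large falls included Pmp22, Mal, Ncmap, Mbp and Cd9, the plasmolipin gene Pllp, the glial gene Bcas1, Dusp15, Gprc5b, the integrin gene Itgb4, the gene of the axon-facing glycoprotein Mag and the periaxin gene Prx. Prx, Mag, Dusp15 and Ncmap were at or under the floor in all 3 control libraries. Pllp was at 981 and 960 RPM in nerve and at 2.52, 1.33 and 0.0389 RPM in control cells, and Bcas1 at 164 and 143 RPM and at 0, 0.107 and 0.0583 RPM. The 5 large rises in the list were Cnp, Emp3, Mtmr2, Serinc5 and Ddr1. Cnp, coding for a nucleotide phosphodiesterase of myelinating glia and chosen after its values were seen, was at 139 and 118 RPM in nerve and at 1165, 1143 and 1125 RPM in control cells (log2 fold change 3.15, adjusted p = 3.61e-06), opposite in direction to Pmp22 and Mbp. Ddr1, coding for a collagen receptor, was at 4.92 and 0 RPM in the nerves and at 22.8, 21.6 and 25.7 RPM in control cells, and was also chosen after its values were seen. Pmp2 and other myelin genes without a TSS among the candidates were not analysed here.

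Sterol and fatty acid synthesis supplies the lipid of myelin. Of 22 of its genes, 9 were lower, 5 were higher and 8 were not called, beside 9.89% of all main TSSs lower and 51.3% higher. The median log2 fold change was -0.40 in RPM and -1.28 with the median ratio. Idi1, an enzyme gene of the isoprenoid pathway, was at 287 and 304 RPM in nerve and at 116, 93.4 and 92.8 RPM in control cells (log2 fold change -1.55, adjusted p = 0.000188). In RPM 1 fall was large, that of Fads2, a fatty acid desaturase gene, whose main TSS was at 3.14 and 2.94 RPM in nerve and at 0 in all control libraries, and it was not large without the first nerve. With TMM the list had 4 large falls and with the median ratio 6.

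Large falls outside the myelin list reached the same size. Igfbp6, coding for an insulin-like growth factor binding protein and counted here among the fibroblast markers, was at 678 and 1372 RPM in nerve and at 0.0175, 0 and 0 RPM in control cells, at least 17578-fold lower. Paqr6, of the progestin and adipoQ receptor family, was at 468 and 532 RPM in nerve and at 0.280, 3.74 and 2.74 RPM in control cells. The phospholipase gene Pla2g16 was at 402 and 370 RPM and at 3.34, 2.89 and 0 RPM. In all 3 the 2 groups lay far apart, with limma adjusted p-values of 8.21e-06, 9.81e-05 and 0.000207. That they did not overlap was required by the naming rule. The sulfotransferase gene Sult1a1 was at 143 and 123 RPM in nerve and at 0 in every control library, at least 2276-fold lower. Sostdc1, coding for a secreted antagonist of bone morphogenetic proteins, was at 134 and 251 RPM in nerve and at 2.45, 0.489 and 0.0583 RPM in control cells (log2 fold change -6.71, SE 0.60, adjusted p = 0.000205). Fth1, the ferritin heavy chain gene and the strongest candidate TSS in nerve, chosen after its values were seen, was at 42522 and 47480 RPM in nerve and at 4083, 3652 and 3955 RPM in control cells (log2 fold change -3.53, adjusted p = 1.71e-06).

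Genes that mark the lineage itself were measured in culture and in nerve. Sox10 was at 48.6 and 42.4 RPM in nerve and at 136, 149 and 140 RPM in control cells, every control library being above both nerves (log2 fold change 1.62, SE 0.13, adjusted p = 0.000126, and 0.73 with the median ratio). S100b, coding for a calcium-binding protein used as a Schwann cell marker, was at 1869 and 1520 RPM in nerve and at 1915, 1811 and 1911 RPM in control cells, and the groups overlapped. Its log2 fold change was 0.16 (SE 0.10, adjusted p = 0.217) in RPM and was called lower with TMM (-0.56, adjusted p = 0.0042) and the median ratio (-0.74, adjusted p = 0.00147). Erbb3, the neuregulin receptor gene, was at 9.60 and 11.7 RPM in nerve and at 41.6, 49.6 and 56.4 RPM in control cells (log2 fold change 2.10, adjusted p = 0.000511, and 1.25 with the median ratio). The labelled cell type thus had its defining markers in all 5 libraries.

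Among 18 lineage and myelination regulators, 9 were higher, 5 were lower and 4 were not called, and the median log2 fold change was 0.72 in RPM and -0.13 with the median ratio. The share of higher calls was near that of all main TSSs, of which 51.3% were higher and 9.89% lower. Large falls were those of Egr2, Etv1 and Qk, and the large rises included those of Erbb3, Wwtr1 and Klf9. Egr2 was at 28.1 and 4.72 RPM in the nerves and at 0.0175, 0.0153 and 0 RPM in control cells, at least 282-fold lower than the nerve mean (log2 fold change -3.67, SE 0.70, adjusted p = 0.00447). The 2 nerves differed from each other at Egr2, and the control libraries were all at or under the floor. Etv1, coding for an ETS factor, was at 30.1 and 20.2 RPM in nerve and at 0, 0.0153 and 0.0194 RPM in control cells. Wwtr1, coding for the Hippo pathway coactivator TAZ, was at 9.20 and 7.61 RPM in nerve and at 32.9, 51.4 and 44.9 RPM in control cells (log2 fold change 2.21, adjusted p = 0.000823, and 1.37 with the median ratio). Klf9 lost its call in 5 of the other analyses, median-ratio scaling among them.

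The largest rise was that of Ngfr, coding for the p75 neurotrophin receptor, which mature myelinating Schwann cells are known to lack. It was at 4.52 and 11.1 RPM in nerve and at 2694, 2587 and 2583 RPM in control cells, 336-fold higher (log2 fold change 8.33, SE 0.30, adjusted p = 6.96e-06). Jun, coding for the AP-1 factor of the repair program, was at 17.5 and 15.2 RPM in nerve and at 606, 541 and 475 RPM in control cells (log2 fold change 4.96, SE 0.14, adjusted p = 3.47e-06). Vim, coding for the intermediate filament vimentin, was at 622 and 659 RPM in nerve and at 15370, 14062 and 14529 RPM in control cells (log2 fold change 4.51, SE 0.06, adjusted p = 6.70e-07). The control libraries lay within a narrow range at these 3 genes and stood apart from the nerves.

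Of 15 genes of immature and repair Schwann cells, 12 were higher (10 of them by a large change), 1 was lower and 2 were not called. Among all main TSSs 51.3% were higher, 16.5% by a large change. Their median log2 fold change was 2.71 in RPM and 1.81 with the median ratio, and their summed level was 1918 and 2174 RPM in nerve and 21334 to 22878 RPM in control cells. Vim made up most of that sum, which without it was 717 and 721 RPM in nerve and 5909 to 6072 RPM in control cells. Outside this list, Cadm1, coding for an adhesion molecule of the immunoglobulin superfamily, was at 10.2 and 4.61 RPM in nerve and at 730, 700 and 648 RPM in control cells (log2 fold change 6.45, adjusted p = 1.19e-05). Within the list, Id3, coding for an inhibitor of basic helix-loop-helix factors, was at 227 and 207 RPM in nerve and at 1382, 1428 and 1453 RPM in control cells (log2 fold change 2.71, adjusted p = 3.47e-06). Cav1, coding for caveolin-1, went the other way, at 108 and 118 RPM in nerve and at 0, 0.856 and 0.272 RPM in control cells. Map1b, of the microtubule-associated proteins, had a log2 fold change of -0.06 (adjusted p = 0.786) in RPM and was called lower with TMM (-0.77, adjusted p = 0.0108) and the median ratio (-0.95, adjusted p = 0.00472). Jun, Vim, Id2, Id4, Cav1, Hes1, Lgi4, Itgb4 and Pdgfrb each stood in more than 1 list.

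**Figure D2:**
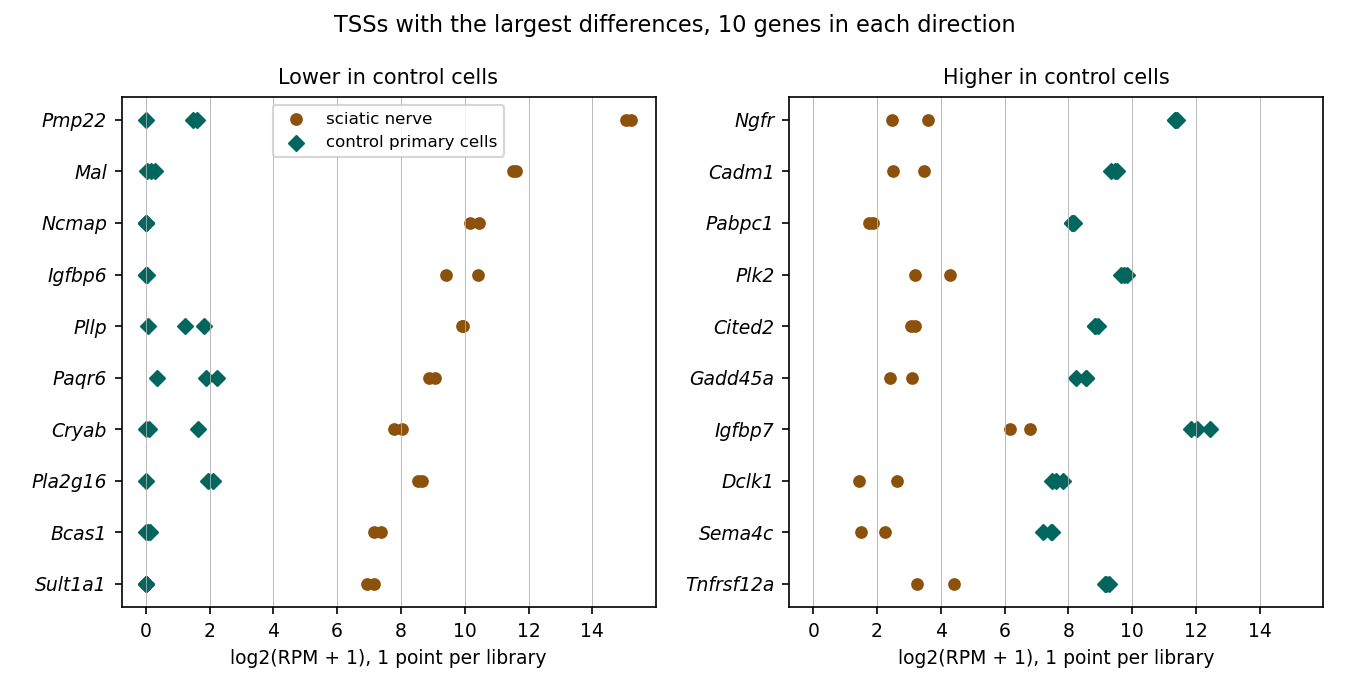
The 10 genes with the largest fall and the 10 with the largest rise by the naming rule, with 1 point per library as log2(RPM + 1) and the 2 groups in different colours, Cryab being shown at a minor TSS. The groups are separated at every gene, which the naming rule required. The nerves differ more between themselves than the control cells do at Igfbp6, Ngfr, Cadm1, Plk2, Gadd45a, Dclk1, Sema4c and Tnfrsf12a, among others.

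Among the other genes of the 12 largest rises, the kinase gene Plk2 was at 8.06 and 18.5 RPM in nerve and at 848, 907 and 809 RPM in control cells (log2 fold change 6.01, adjusted p = 2.15e-05). Cited2, coding for a transcriptional coregulator, was at 7.29 and 8.10 RPM in nerve and at 460, 459 and 486 RPM in control cells (log2 fold change 5.75, adjusted p = 1.71e-06). Igfbp7, another growth factor binding protein gene, was at 71.4 and 110 RPM in nerve and at 3686, 5559 and 4166 RPM in control cells (log2 fold change 5.62, adjusted p = 9.69e-06). The naming rule had required that the 2 groups do not overlap. At none of these genes did a nerve come near a control library. Pabpc1 (poly(A)-binding protein), Gadd45a (a stress-response protein), Dclk1 (a microtubule-associated kinase), Sema4c (a semaphorin), Tnfrsf12a (the TWEAK receptor), Plpp1 (a lipid phosphatase) and Kif22 (a mitotic kinesin) rose by log2 fold changes of 6.32, 5.69, 5.60, 5.50, 5.35, 5.29 and 5.08, and each rise was above 4 with TMM and the median ratio as well.

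Immediate early and stress-response genes were higher at 13 of 20 promoters (7 by a large change) and lower at 2, beside 51.3% of all main TSSs higher and 16.5% by a large change, with a median of 1.66 in RPM and 0.81 with the median ratio. Gadd45b, of the same family as Gadd45a, was at 51.6 and 56.9 RPM in nerve and at 548, 477 and 537 RPM in control cells (log2 fold change 3.24, adjusted p = 5.85e-06). Jund, coding for an AP-1 factor related to Jun and chosen after its values were seen, had a large fall, from 2.31 and 7.19 RPM in nerve to 0, 0.0153 and 0 RPM. Of 4 circadian output genes, Cry2 (a clock repressor) was higher by 2.23, Tef (a PAR domain factor) was lower at a log2 fold change of -3.53, and Nr1d1 and Dbp were not called (adjusted p = 0.162 and 0.0989). Egr1 and Atf3 had no TSS among the candidates and were not analysed here.

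Genes of the cell cycle were higher at 12 of 17 promoters (7 by a large change), and the other 5 were not called. The shares over all main TSSs were 51.3% higher and 16.5% by a large change. Their median log2 fold change was 1.46 in RPM and 0.91 with the median ratio. Ccnd2, coding for cyclin D2, was at 20.8 and 30.8 RPM in nerve and at 182, 161 and 179 RPM in control cells (log2 fold change 2.73, adjusted p = 7.04e-05). Ran, coding for the GTPase of nuclear transport, was at 58.8 and 65.7 RPM in nerve and at 353, 332 and 340 RPM in control cells (log2 fold change 2.44, adjusted p = 1.12e-05). The replication clamp gene Pcna had a smaller change, from 52.8 and 39.0 RPM to 95.3, 83.0 and 116 RPM (log2 fold change 1.08, adjusted p = 0.0045, and 0.20 with the median ratio). With the median ratio, the list held 1 large rise.

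Actin cytoskeleton and adhesion genes were higher at 24 of 33 promoters (12 by a large change) and lower at 3, with a median of 1.64 in RPM and 0.75 with the median ratio. Actb, coding for beta-actin, was at 2105 and 2504 RPM in nerve and at 11005, 11096 and 11236 RPM in control cells (log2 fold change 2.27, adjusted p = 6.75e-06). Cfl1, coding for the actin-severing protein cofilin, was at 670 and 792 RPM in nerve and at 5695, 5378 and 5814 RPM in control cells (log2 fold change 2.95, adjusted p = 3.61e-06). Both stayed higher with the median ratio, at 1.38 and 2.05. Genes of protein folding in the endoplasmic reticulum were higher at 16 of 22 promoters (8 by a large change) and lower at 1, with a median of 1.56 in RPM and 0.69 with the median ratio. Both the actin and this list stand beside 51.3% of all main TSSs higher and 16.5% by a large change. Serpinh1, coding for the collagen chaperone HSP47, was at 98.3 and 97.4 RPM in nerve and at 1082, 1014 and 1109 RPM in control cells (log2 fold change 3.43, adjusted p = 1.77e-06). The disulfide isomerase gene Pdia3 and the chaperone genes Hsp90b1 and Calr rose by 3.19, 3.17 and 2.78.

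Ribosomal and mitochondrial gene groups are read against the median of all main TSSs, 0.95 in RPM and 0.11 with the median ratio. Of all main TSSs 51.3% were higher in RPM, 16.5% by a large change. Cytosolic ribosomal protein genes were higher at 42 of 44 promoters and large at 6 (Rplp0 the highest, 250 and 255 RPM in nerve and 1915, 1849 and 1919 RPM in control cells), with a median of 1.37 in RPM, 0.65 with TMM and 0.47 with the median ratio. Respiratory chain and ATP synthase genes were higher at 40 of 44, with a median of 0.94 in RPM and 0.04 with the median ratio. Mitochondrial ribosomal protein genes were higher at 25 of 37 and lower at 1, with medians of 0.99 and 0.10. Of 6 glycolysis genes, 5 were higher, with a median of 1.56 in RPM and 0.67 with the median ratio, and Ldha (lactate dehydrogenase) rose by a large change, from 276 and 283 RPM in nerve to 2141, 2051 and 2045 RPM. Gapdh was higher by 0.60 in RPM and lower, at -0.29, with the median ratio.

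**Figure D3:**
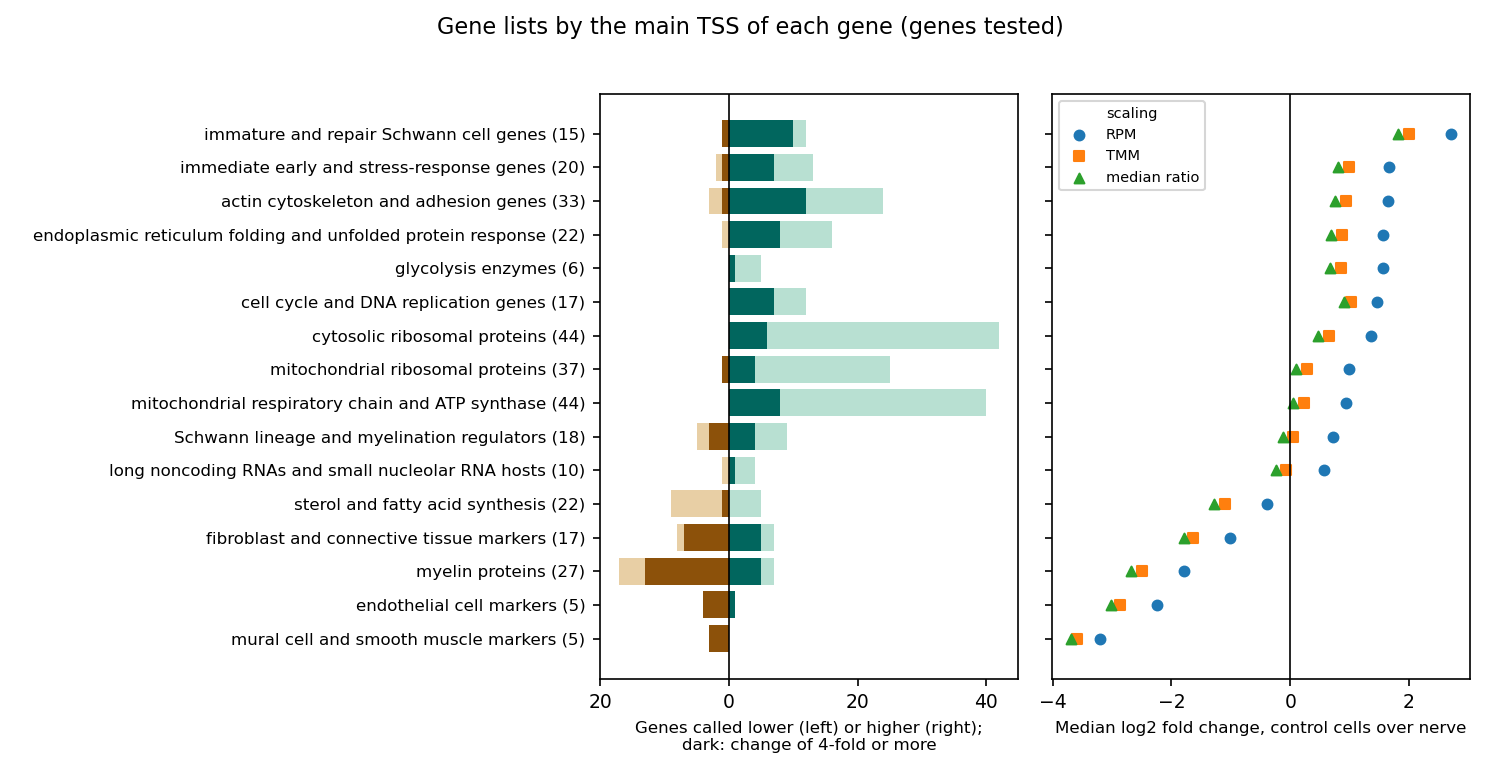
Gene lists with 5 or more genes tested, with the numbers of genes whose main TSS was higher or lower, large changes in dark (left), and the median log2 fold change under RPM, TMM and median-ratio scaling (right). The myelin list lies lowest among lists of 10 or more genes at -1.79 in RPM and the immature and repair list highest at 2.71, and the respiratory chain list moves from 0.94 to 0.04.

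Genes listed as markers of other cells of the nerve were mostly lower in control cells, although few had a candidate TSS. Several of them were well measured in cAMP-treated cells of the same culture, as given below. Over all main TSSs, 9.89% were lower and 51.3% were higher. Of 17 fibroblast and connective tissue markers, 8 were lower (7 large) and 7 were higher (5 large), and their summed level was 1839 and 2575 RPM in nerve and 1937 to 2019 RPM in control cells. Igfbp6, Ebf1, Pdgfra and Clec3b were at or under the floor in all control libraries, whereas Col1a1, coding for a chain of collagen I, was at 110 and 96.2 RPM in nerve and at 790, 891 and 892 RPM in control cells (log2 fold change 3.04, adjusted p = 6.05e-06). Olfml2b, of the olfactomedin-like proteins, was at 4.38 and 14.4 RPM in nerve and at 177, 200 and 208 RPM in control cells (log2 fold change 4.43, adjusted p = 0.000247). The list's members thus moved both ways, and its median was -1.02 in RPM.

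Of 5 endothelial markers, Egfl8, Cav1, Rhoj and Tmem88 were lower and Jam2 was higher (a call lost in 9 of the other analyses, without the first nerve among them), and the list summed to 823 and 910 RPM in nerve and to 70.1 to 78.7 RPM in control cells. Pecam1, Cdh5 and Kdr, which define that cell type, had no TSS among the candidates. Egfl8 was at 381 and 424 RPM in nerve and at 22.5, 31.1 and 21.6 RPM in control cells, while cells of the same culture given CPT-cAMP held 716 ± 37 RPM (SD, n = 3) and S16 cells 302 ± 36 RPM (SD, n = 2). Tmem88 was at 20.3 and 17.8 RPM in nerve and at 145 ± 8.48 RPM in cAMP-treated cells. Rhoj was at 35.4 and 32.1 RPM in nerve and at 45.0 ± 8.01 RPM in cAMP-treated cells. Cav1 stayed far below its nerve level in cAMP-treated cells, at 7.23 ± 0.455 RPM. Of 5 mural cell markers, Pdgfrb, Smtn and Ppp1r12b were lower, the last 2 of them at 0 in all control libraries, and the sum was 79.4 and 117 RPM in nerve and 7.84 to 18.9 RPM in control cells. Pdgfrb was at 27.1 and 51.2 RPM in nerve and at 24.7 ± 2.27 RPM in cAMP-treated cells. Smtn was at 26.8 and 20.3 RPM in nerve and at 17.1 ± 1.87 RPM in cAMP-treated cells, and Ppp1r12b was at 0 there. Of 4 adipocyte markers, Cfd (complement factor D, 76.1 and 34.9 RPM in nerve), G0s2 and Acsl1 were at 0 in all control libraries and Gpd1 was not called. Their sum was 307 to 321 RPM in nerve and 275 to 292 RPM in control cells. Most of it came from the TSS on chrX assigned to Gpd1, at 189 and 260 RPM in nerve. That TSS was also at 384 ± 29.1 RPM in cAMP-treated cells and at 479 ± 0.757 RPM in S16 cells. Csf1r, the macrophage receptor gene, was at 4.82 and 1.07 RPM in nerve and at 0 in control cells, and the sum of the 3 macrophage markers was 236 and 318 RPM in nerve and 151 to 171 RPM in control cells. Most of that sum was Cd48, at 306 and 232 RPM in nerve and at 157, 143 and 168 RPM in control cells. Cd48 was also at 199 ± 23.4 RPM in cAMP-treated cells and at 144 ± 18.8 RPM in S16 cells. The perineurial list had 1 gene tested, Itgb4, and no muscle, blood or neuron marker of the lists had a candidate TSS. The part of other cell types in the falls described above was not tested.

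Cells given the cAMP analog differed from the control cells in medium, and their levels are set beside the nerve as values alone. At the 529 TSSs with a large fall, the median level was 9.54 RPM in nerve, 0.168 RPM in control cells, 1.12 RPM in cAMP-treated cells and 0.687 RPM in S16 cells. Mbp was at 1336 ± 156 RPM (SD, n = 3) in cAMP-treated cells and Mal at 371 ± 66.3 RPM, each above the control cells and below the nerve. Egr2 was at 34.0 ± 1.33 RPM and Bcas1 at 134 ± 11.9 RPM, above both nerves for Egr2 and just under the lower nerve for Bcas1. Ncmap was at 1.67 ± 0.495 RPM and Igfbp6 was at 0 in all cAMP-treated libraries. At the 512 TSSs with a large rise the median level was 8.79 RPM in nerve, 65.0 RPM in control cells, 47.3 RPM in cAMP-treated cells and 40.1 RPM in S16 cells. Ngfr was at 794 ± 71.6 RPM and Jun at 60.8 ± 6.21 RPM in cAMP-treated cells, between control cells and nerve.

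At Pmp22 the choice of TSS differed as well as the level. Pmp22 has 21 TSSs among those tested, and summed over them it was at 43960 RPM in nerve and 472 RPM in control cells. The upstream main TSS took 81.0% and 83.8% of this sum in the nerves and 0%, 0.407% and 0.446% in control cells. A TSS downstream of it (chr10:49319494-49319573) was at 6270 and 5680 RPM in nerve and at 451, 394 and 391 RPM in control cells (log2 fold change -3.86, SE 0.09, adjusted p = 1.77e-06). It took 13.6% of the sum in nerve and 87.2% in control cells, so that most of the Pmp22 reads at tested TSSs in control cells came from this downstream promoter. That TSS stood at 3493 ± 436 RPM (SD, n = 3) in cAMP-treated cells and at 5855 ± 21.2 RPM (SD, n = 2) in S16 cells, and the upstream TSS at 19.5 ± 4.73 RPM and 524 ± 13.9 RPM.

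**Figure D4:**
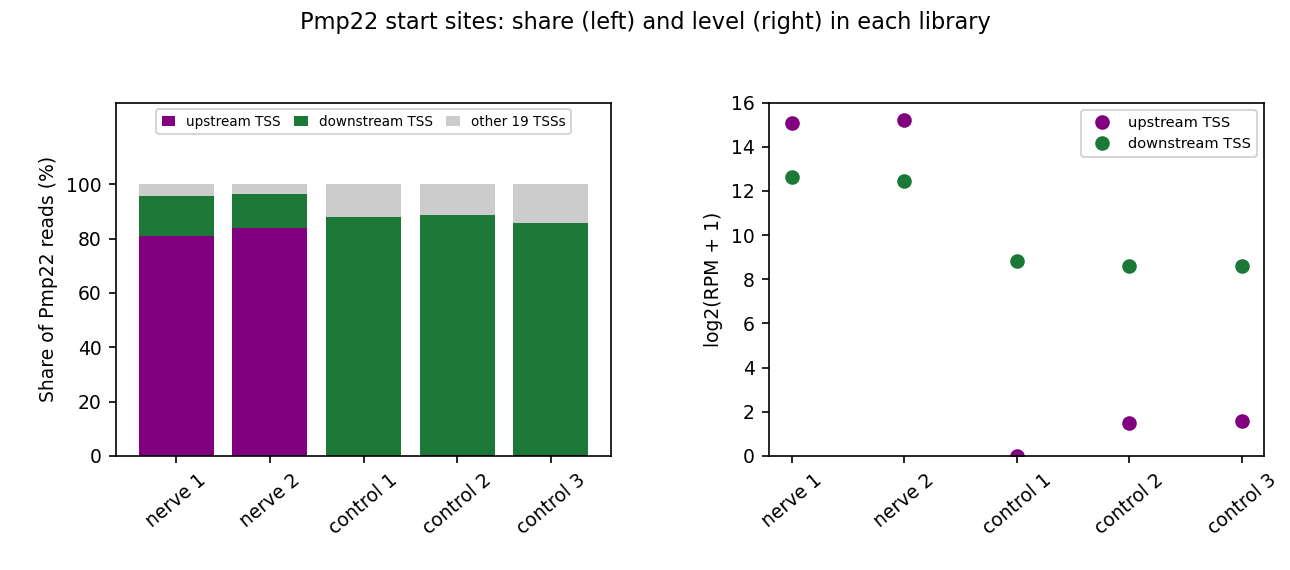
Shares of the upstream and the downstream TSS in the summed Pmp22 level (left) and their levels as log2(RPM + 1) (right), with 1 stacked bar or 1 pair of points per library and the other 19 TSSs in grey. The upstream TSS holds 81.0% and 83.8% in the nerves and at most 0.446% in control cells, whereas the downstream TSS is lower in control cells by a log2 fold change of -3.86.

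Across genes with at least 2 tested TSSs, the use of TSSs differed (diffSplice, Simes p-values, adjusted) in 339 of 597 genes (56.8%), and in 103 of them (17.3%) by a shift of at least 25 percentage points. Without the second nerve, with the same TSSs tested, the latter count was 65, and with pseudocounts of 0.1 and 5 it was 83 and 105. In log2(RPM + 1) a TSS near 1 RPM changes less than a strong one at an unchanged share. The count at any size can therefore include genes without a shift. Of the 103 genes, 37 had at least 20 RPM in both groups. In 29 of the 37 the TSS that moved most had a higher share in control cells. These shares leave out TSSs used in culture alone, which were never candidates, and the part of this in the direction was not tested. At Txnip, coding for the thioredoxin-interacting protein, the TSS at chr2:218170018-218170022 took 29.7% and 21.98% in the nerves and 85.4%, 92.9% and 90.1% in control cells (adjusted p = 4.75e-05). At Ddah2, a gene of methylarginine breakdown, 1 of 9 TSSs took 23.3% and 14.99% in nerve and 80.6%, 76.3% and 66.4% in control cells. The shares of the 2 groups stood apart at both genes. The G protein subunit gene Gnb2, the kinase gene Aatk and Phlda3 had shifts of 50.5, 46.6 and 45.2 points in the same direction.

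Of a gene's reads at tested TSSs, the 5′-most TSS took more in control cells than in nerve, a description that was chosen after the data were seen. Candidates had to be active in nerve, so TSSs used in culture alone are missing from these sums while TSSs used in nerve alone are kept. Over 360 genes with at least 2 tested TSSs and at least 20 RPM in both groups, the median share of the 5′-most TSS was 85.3% and 82.7% in the nerves and 95.5%, 95.6% and 95.7% in control cells. The 2 parental S16 libraries, sequenced on the same type of instrument as the nerves, were at 95.9% and 95.2%, and the cAMP-treated libraries at 95.5% to 95.9%. The share was higher in every control library than in both nerves at 197 of the 360 genes (54.7%) and lower at 59 (16.4%). Whether this choice of TSSs or the quality of the nerve RNA plays a part was not tested.

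**Figure D5:**
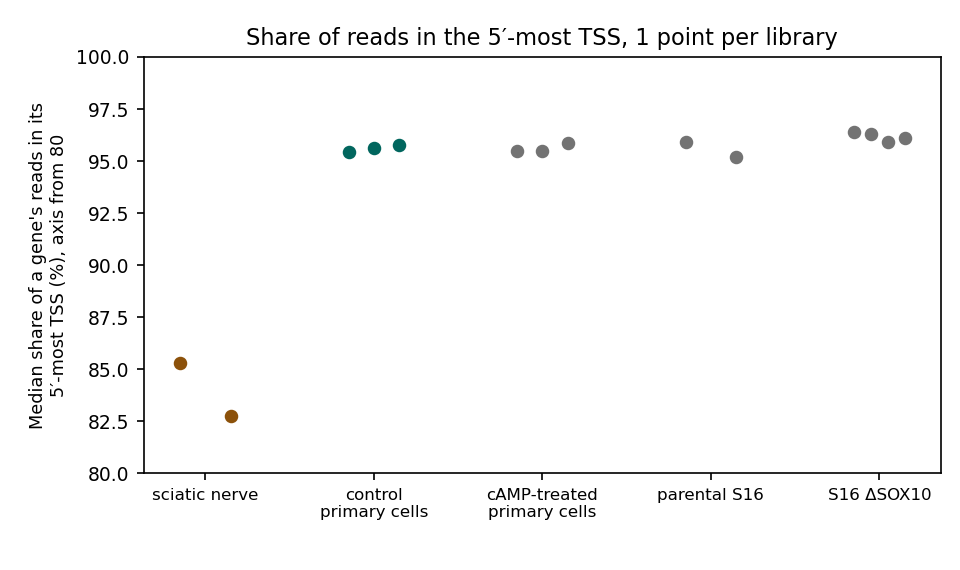
Median share of the 5′-most TSS in a gene's reads at tested TSSs over 355 to 360 genes, in percent, with 1 point per library of all 14 and an axis that starts at 80%. The 2 nerves lie at 85.3% and 82.7%, and all cultured libraries above 95%.

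The large falls were spread unevenly over genes. The 529 TSSs belonged to 239 genes, with 54 TSSs at no named gene, and only 162 of them were the main TSS of their gene, while 260 lay downstream and 53 upstream of it. Over all tested TSSs that were not the main one of their gene, 1218 lay downstream and 284 upstream, a similar split. Malat1 had 24 of its 57 tested TSSs among them, Pmp22 18 of 21, Fth1 15 of 16, Igfbp6 13 of 18 and Neat1 12 of 37, so that the long noncoding RNA genes Malat1 and Neat1 entered through minor TSSs. At their main TSSs, Malat1 was lower by less than the large change (14490 and 12366 RPM in nerve, 4095, 5509 and 5816 RPM in control cells, log2 fold change -1.40, adjusted p = 0.000543) and Neat1 was not called in RPM (log2 fold change -0.41, adjusted p = 0.0655), but was called lower with TMM (-1.12, adjusted p = 0.002) and the median ratio (-1.30, adjusted p = 0.00125). Of 10 long noncoding RNA and small nucleolar RNA host genes, 4 were higher at the main TSS (1 of them, Mir22hg, by a large change), 1 was lower and 5 were not called, beside 51.3% of all main TSSs higher and 9.89% lower. The small heat shock protein gene Cryab had 9 of 18 TSSs with a large fall, and its TSS at chr8:53775855-53775863 was at 219 and 263 RPM in nerve and at 2.08, 0.0153 and 0.0778 RPM in control cells. Its main TSS, which lies downstream, was at 2703 and 2821 RPM in nerve and at 2293, 2224 and 2279 RPM in control cells (log2 fold change -0.29, adjusted p = 0.00603).

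The 313 TSSs with a large fall that were not the main TSS of a gene were narrow, with a median width of 12 bp, and 19.2% of them overlapped a SOX10 peak of nerve, beside 18.0 bp and 19.8% for all 1502 such TSSs tested. Main TSSs with a large fall had a median width of 83.5 bp and an overlap of 59.9%. Main TSSs with a large rise had a median width of 71.0 bp and an overlap of 72.1%, beside 78.0 bp and 71.3% for all main TSSs. The 512 TSSs with a large rise belonged to 500 genes, and 487 of them were the main TSS.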

How the data were processed

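Per the labels and the methods of the study, the authors removed adapters with cutadapt 1.14, aligned reads to rn5 with STAR 2.5.2a, handled alignments with SAMtools 1.9, found 5′ ends with Make_CTSS, grouped them into TSSs with Paraclu and counted reads with featureCounts (Subread 1.6.1). They assigned TSSs to genes within 1 kb on the same strand. They deposited RPM per TSS and library, scaled to the whole library, with columns of SOX10 and H3K4me3 peaks, and 4 columns of log2 fold changes and FDR values from their own edgeR 3.24.3 comparisons of cAMP and S16 cells, which were not used. Library groups came from the sample titles. Libraries had been made from total RNA with oligo-dT priming, template switching and size selection, so that transcripts without a poly(A) tail may be under-represented.

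All values of the 5 libraries were whole multiples of 1 read (tolerance 0.01 read), which gave whole reads and depths of 29895599 to 65432361 reads. The floor of 3 reads was 0.0782 to 0.100 RPM in nerve and 0.0458 to 0.0583 RPM in control cells. No molecular identifiers are named, so floors cover counting error only. A fold against a group at or under the floor in all its libraries used the largest floor of that group and is a lower bound. A fitted log2 fold change of such a TSS depends on the pseudocount.

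Log2(RPM + 1) of the 2 nerve and 3 control libraries was fitted without covariates with limma 3.58.1 (lmFit, eBayes with trend) in R 4.3.3, and p-values were adjusted over the 4700 TSSs by the Benjamini-Hochberg method (threshold 0.05). TSS use was tested with diffSplice and Simes p-values. The p-values measure the spread between nerves and between populations of cells, and the groups also differ in sequencer. The median SD of log2 values was 0.363 between nerves and 0.289 between control libraries. On simulated reads of this design (4646 TSSs, 200 changed) the test found 16% of 2-fold, 92% of 4-fold and 100% of 8-fold changes. Of its calls there, 3.14% were false. Far more TSSs were called in the data, 1603 higher and 1022 lower of 4700. The simulated rates were not split by level and need not hold for the results given here.

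Named genes were, in each direction, the 12 with the largest log2 fold change among large changes without overlap whose higher group averaged 50 RPM or more (1 TSS per gene), in each gene list up to 5 large changes and 3 other members by level, a fixed set with Sox10, Egr2, Jun, Ngfr, Mbp, Pmp22 and S100b, and the 6 genes with the largest shift of TSS share at 20 RPM or more in both groups. Some results under these rules are not reported here. The comparison, its lists and these rules were chosen with earlier results of these data known. Alternatives were edgeR 4.0.16 (quasi-likelihood and exact tests) and DESeq2 1.42.0 on the recovered reads, TMM and median-ratio scaling, other filters and pseudocounts, other sizes of a large change, TSSs summed per gene, all 14 libraries, a replicate block and each replicate left out. Promoter windows were RefSeq's, and no genome of build rn5 was used here.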

Additional observations from a re-analysis of the deposited data

How the results depend on the processing

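Large rises numbered 512 in RPM, 201 with TMM, 158 with the median ratio (and under all 3 scalings together), 205 and 214 with edgeR's quasi-likelihood and exact tests, 168 with DESeq2, 303 with a pseudocount of 5, 1346 at a log2 fold change of at least 1 and 133 at 3. Large falls numbered 529 in RPM, 890 with TMM, 1004 with the median ratio, 953 with DESeq2, 153 with a pseudocount of 5, 236 at a mean of at least 5 RPM, 175 summed per gene, 994 at a log2 fold change of at most -1 and 219 at -3. Every one of the 512 and 529 kept its sign in each of these tool, scaling, filter and pseudocount alternatives in which it was tested. This says little, since a change of sign was hardly possible. The 2 groups did not overlap at these TSSs, and the scalings moved values by less than a large change. At any size, rises numbered 1603 in RPM, 782, 827, 929, 932 and 773 with quasi-likelihood, exact test, DESeq2, TMM and median ratio, and falls 1022 in RPM, 1549 with the median ratio, 359 at a mean of at least 5 RPM and 318 summed per gene.

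With each library left out in turn, large rises ranged from 484 to 615, large falls from 197 to 543, rises of any size from 1298 to 1705, falls of any size from 289 to 948 and genes with a shift of TSS use from 33 to 118 (79 to 94 without a control library). The lowest counts of falls came without a nerve (240 and 197 large, 359 and 289 of any size), since a TSS active in nerve alone then passes the minimum in 1 library only. With the same TSSs tested, a choice made after the data were seen, these were 514 and 402 large and 759 and 706 of any size, and TSS use gave 118 and 65 genes. Without the second nerve, TSS use gave 33 genes under the minimum as set. Counted at any size of shift, 339 genes differed. List counts ranged from 6 to 13 for large falls of myelin genes (13 and 13 without a nerve with the same TSSs tested), 2 to 7 for fibroblast markers (6 and 7 with the same TSSs), 10 to 12 for immature and repair genes, 6 to 8 for immediate early genes, 7 to 9 for the cell cycle, 12 to 14 for actin, 8 to 10 for endoplasmic reticulum, 5 to 6 for cytosolic ribosomal and 7 to 8 for respiratory chain genes. Large rises in lists fell with TMM and the median ratio to 3 and 1 for the cell cycle and 6 and 5 for actin genes. They fell to 1 and 1 for cytosolic ribosomal, 3 and 3 for respiratory chain and 7 and 7 for immature and repair genes. With the median ratio they fell to 4 for immediate early and 5 for endoplasmic reticulum genes. A pseudocount of 5 left 4 large falls of fibroblast markers. The cause of these shifts was not tested beyond the construction of each alternative.

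Replicate numbers of nerves and control cells did not pair the samples (correlations of deviations -0.003 and -0.011). A replicate block gave 525 large rises, 559 large falls, 1552 rises and 1018 falls of any size, and 85 genes with a shift of TSS use.

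Named large changes kept direction and call in 1620 of 1638 alternative fits and lost the call in 18. None reversed, which says little for changes of this size without overlap of the groups. Jam2 lost the call in 9 fits and Klf9 in 5. Small named changes that reversed were those of Gapdh (-0.11 with both edgeR tests and TMM, -0.29 with DESeq2 and the median ratio), S100b (-0.57, -0.57, -0.75 with DESeq2, -0.56 with TMM and -0.74), Gpd1 (-0.38, -0.38, -0.56, -0.36 and -0.54), Gmfg (-0.34, -0.34, -0.52, -0.14, -0.29, and -0.30 without the second and 1.18 without the first nerve), Sertad1 (-0.076 with DESeq2 and -0.077 with the median ratio), Ssr4 (-0.043 and -0.041), Klf2 (-0.019 with DESeq2), Nr1d1 (-0.083 summed per gene), Map1b (0.093 without the first nerve, -0.21 without the second and 0.00097 without the first control library) and Hspb6 (0.30 without the second nerve, -0.77 without the first and 0.20 without the second control library).

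Depth limited the measured folds to the floor of 3 reads, and the pseudocount of 1 RPM limited the fitted falls. Large falls numbered 791 with a pseudocount of 0.1 and 153 with 5.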
